A study of Homo sapiens with 8 samples.

Results

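Gene expression after 8 h with TGF-β was compared between A549-S3KO cells that expressed Smad3(RA/KP) and A549-S3KO cells that expressed wild-type Smad3. The comparison took the 4 TGF-β-treated libraries among the 8 libraries of the series, 2 for each form of Smad3, chosen by their labelled genotype and treatment. A549 is a human lung adenocarcinoma cell line, and A549-S3KO is a derivative in which SMAD3 was disrupted with a double nickase plasmid. All groups share this knockout and a lentiviral Smad3 cDNA, which encoded either wild-type Smad3 or Smad3 with the substitutions R104K and A105P, called Smad3(RA/KP). Cells with each form are called a line here. For the treated groups, cells were trypsinized, seeded on collagen and stimulated at the same time for 8 h with TGF-β at 1 ng/ml. The other 4 libraries came from both lines without TGF-β and are used here for the line difference in unstimulated cells. The study describes its replicates as independent experiments. Infected cells were cloned by limiting dilution and several clones were in use, with the wild-type clone picked for its low Smad3 expression. The clones behind the libraries are not named, so an effect of the substitutions and a difference between clones cannot be told apart. The treated libraries held 1.27 and 1.81 Gb of bases mapped to genes for wild-type Smad3 (replicates 1 and 2), and 1.21 and 1.57 Gb for Smad3(RA/KP), as recovered from the ratio of coverage to FPKM.

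TGF-β binds a pair of receptor kinases, and the type I receptor phosphorylates Smad2 and Smad3, which then join Smad4 and act on transcription in the nucleus. Smad3 binds DNA through its N-terminal MH1 domain. In carcinoma cells such as A549 the pathway drives the epithelial-mesenchymal transition (EMT), in which epithelial junction genes are repressed, genes of the extracellular matrix are induced and cells become motile. Motility needs Rac1, a small GTPase that builds lamellipodia. GTPase activating proteins (GAPs), such as those of the ARHGAP genes, switch Rac1 off, and guanine nucleotide exchange factors (GEFs) switch it on. The study made Smad3(RA/KP) to separate motility from the other EMT responses and sequenced these cells to look for genes that differ between the lines.

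The substitutions lie in the part of exon 2 of SMAD3 shown next, because it is the only designed difference between the lines. Capitals mark codons 104 and 105, which encode the arginine and the alanine that are replaced; the sequence is the GENCODE reference on GRCh38, chr15:67164986-67165015, plus strand, and was not read from the libraries.
SMAD3 codons 100 to 109: caccacgagctaCGGGCCatggagctgtgt

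SMAD3 itself, the gene that was disrupted and then reintroduced, had similar levels in both lines. It had 137 and 166 TPM in treated wild-type Smad3 cells and 168 and 169 TPM in treated Smad3(RA/KP) cells. TPM is the authors' level scaled to transcript length and library depth. The difference on log2(TPM + 1) was 0.16 (SE 0.15) and did not pass, with a limma adjusted p = 0.810. Reads of the lentiviral cDNA and of the disrupted locus share this record. All 4 libraries carried epithelial transcripts. Of 9 markers of A549 and airway epithelium, 8 were detected, KRT8 at 4709 to 6862 TPM, KRT7 at 5153 to 5649 TPM and EPCAM at 1.40 to 2.71 TPM, and KRT19 was listed at 0 throughout. The lymphocyte markers PTPRC and CD3E, the myeloid marker LYZ, the endothelial markers PECAM1 and VWF and the fibroblast marker DCN were listed at 0, as were the surfactant genes SFTPC and SFTPB of alveolar cells. Other markers of these cell types were detected. CD68, a lysosomal protein used as a myeloid marker, was at 56.5 to 104 TPM, without a separation of the lines. The myeloid marker CD14 was at 4.10 to 7.42 TPM, also without one, and the fibroblast marker LUM at 0.330 to 3.81 TPM.

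After TGF-β, 1 gene passed the test between the lines. SPARC, a secreted glycoprotein that binds collagen and calcium in the matrix, was lower in Smad3(RA/KP) cells, among 13141 genes tested (0.00761% of genes, limma with Benjamini-Hochberg adjustment at 0.05). No gene passed as higher (0% of genes). At an unadjusted p under 0.05 there were 973 genes (7.4%), of which 651 (4.95%) had a higher level and 322 (2.45%) a lower level in the mutant line. Most genes lay close to equality: the median absolute log2 difference was 0.20, the 95th percentile 0.65 and the 99th percentile 1.21. The mean levels of both treated groups had a Pearson correlation of 0.987 across genes. Single replicates correlated at 0.975 for wild-type Smad3 and at 0.977 for Smad3(RA/KP). A mean of 2 libraries carries less noise than a single library, so the first value cannot be ranked against the others. Genes are not independent replicates. Differences beyond 1 on the log2 scale were seen for 128 genes with a higher level in Smad3(RA/KP) cells (0.974%) and 79 with a lower level (0.601%). Of these 207 genes, 144 had a mean under 5 TPM and 106 were listed at 0 in a treated library. Differences were also simulated for these 13141 genes, with independent noise for each library. There limma found 0 of 50 set at 0.5 log2 units, 10 of 50 set at 1 unit and 39 of 50 set at 2 units. In that setting, differences of the size seen for most genes were not detectable with 2 libraries a group. The simulation left out the trends on GC content described below, so the power of the real fit was not measured.

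**Figure D1:**
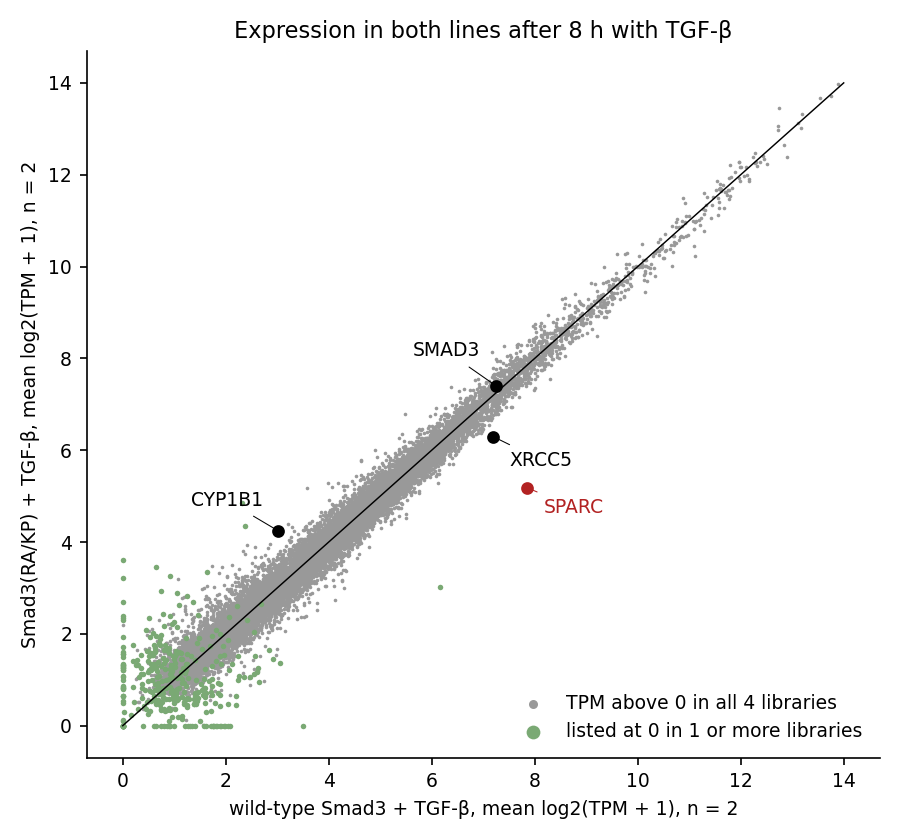
Mean log2(TPM + 1) of 2 libraries for each of the 13141 genes tested, in wild-type Smad3 cells (horizontal axis) and Smad3(RA/KP) cells (vertical axis), both after 8 h with TGF-β; the line marks equal levels, and green points are genes listed at 0 TPM in at least 1 of the 4 libraries. SPARC lies 2.67 below the line, while SMAD3 lies within 0.16 of it and the genes furthest from it at low levels are mostly green.

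SPARC (chr5:151661096-151687054, minus strand, GRCh38) had 228 and 232 TPM in treated wild-type Smad3 cells and 45.0 and 27.7 TPM in treated Smad3(RA/KP) cells. Both wild-type libraries were far above both mutant libraries, and the difference was seen in each replicate pair. The difference was −2.67 on log2(TPM + 1) (SE 0.21, limma adjusted p = 0.00824), or 6.35-fold lower, with −2.32 in replicate 1 and −3.02 in replicate 2. In RNA from whole cultures, a lower level in each cell and a smaller share of cells with the transcript cannot be told apart. The same direction was present without TGF-β, with 128 and 131 TPM in wild-type Smad3 cells and 35.1 and 23.5 TPM in Smad3(RA/KP) cells. That untreated difference was −2.13 (limma adjusted p = 0.0268), and SPARC and SEPT5 were the 2 genes that passed in untreated cells (0.0152%). The treated and untreated differences of SPARC differed by −0.54 (SE 0.30) and this did not pass (limma adjusted p = 0.881). The level with TGF-β was above that without it in both replicates of both lines, by 0.82 log2 units for wild-type Smad3 and 0.29 for Smad3(RA/KP), and neither passed (limma adjusted p = 0.0695 and 0.454; these responses share the treated libraries with the line difference). Of the 7 largest absolute differences in the table, that of SPARC was the only one of a gene above 0 TPM in all treated libraries.

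The call for SPARC rested on each treated wild-type library and on replicate 2 of treated Smad3(RA/KP) cells. Without wild-type replicate 1 or 2 the limma adjusted p was 0.162 or 0.147, without treated Smad3(RA/KP) replicate 2 it was 0.227 and without untreated Smad3(RA/KP) replicate 1 it was 0.0502, while the log2 difference stayed between −2.92 and −2.41. The antisense record that overlaps SPARC was listed at no more than 0.0606 TPM in any library. Other genes of the SPARC family, looked up after the values of SPARC were seen, had no passing difference. SMOC1 had 8.26 and 11.4 TPM in wild-type Smad3 cells and 10.8 and 12.8 TPM in Smad3(RA/KP) cells after TGF-β (log2 difference 0.26). The testican gene SPOCK1 had 18.2 and 24.7 TPM against 17.9 and 19.7 TPM (−0.16), and the follistatin-like gene FSTL1 had 30.0 and 38.7 TPM against 21.6 and 23.0 TPM (−0.59, limma adjusted p = 0.612). SPARCL1, SMOC2 and SPOCK3 were listed at 0 in all libraries.

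**Figure D2:**
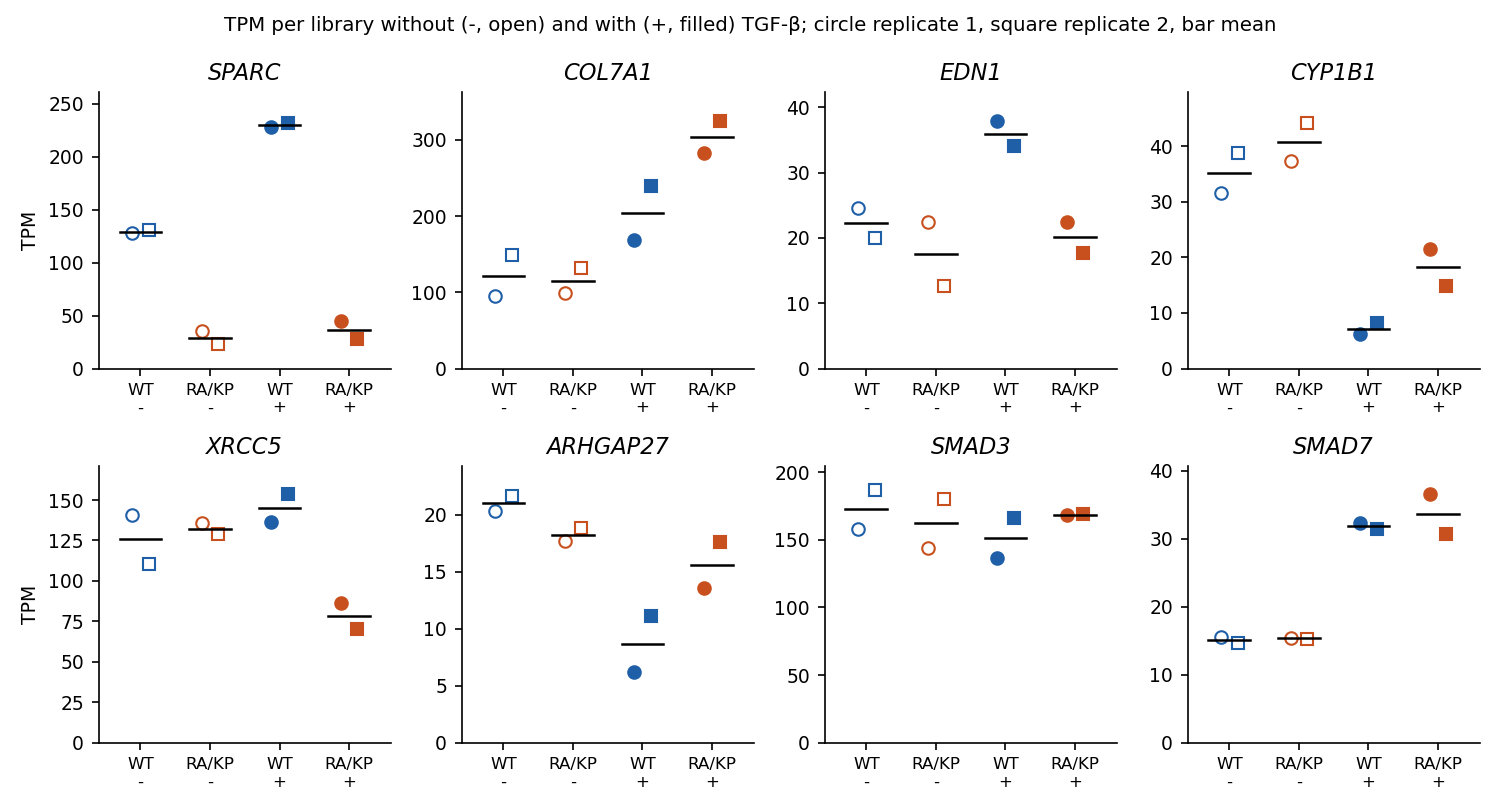
TPM of 8 genes in every library (vertical axes, starting at 0), without (open) and with (filled) TGF-β, for wild-type Smad3 (blue) and Smad3(RA/KP) (orange); circles are replicate 1, squares replicate 2 and bars the mean of 2. SPARC is separated by line in both conditions, COL7A1, EDN1, CYP1B1, XRCC5 and ARHGAP27 have treated groups that do not overlap but did not pass, and the treated SMAD7 values overlap.

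The genes with the next smallest p-values did not pass, the lowest limma adjusted p among them being 0.106. Those named here had the smallest p in each direction among genes averaging 5 TPM or more, with a TPM above 0 in each treated library and treated groups that did not overlap; groups did not overlap for 37.5% of all genes, 18.8% with the mutant above and 18.7% with it below. CYP1B1, a cytochrome P450 that is induced by the aryl hydrocarbon receptor, had 6.21 and 8.14 TPM in wild-type Smad3 cells and 21.5 and 14.9 TPM in Smad3(RA/KP) cells. Its log2 difference was 1.22 (SE 0.24, limma adjusted p = 0.475), against 0.21 without TGF-β. MEGF6, which encodes a protein with EGF-like repeats, had 8.01 and 9.67 TPM against 16.3 and 22.4 TPM (1.04, limma adjusted p = 0.475), and NRBP2, a pseudokinase gene, 34.6 and 47.1 TPM against 58.4 and 98.7 TPM (0.89, adjusted p = 0.466). CEMP1 had 3.17 and 5.82 TPM in wild-type Smad3 cells and 13.7 and 15.1 TPM in Smad3(RA/KP) cells (1.53, limma adjusted p = 0.227). CEMP1 overlaps AMDHD2 on the other strand, which had a difference of 0.44, and since the counting is not stated to use strand the reads of the pair cannot be told apart. The record of MIR6743 lies within RIC8A on the same strand, so their reads cannot be told apart either. MIR6743 had 3.92 and 6.24 TPM against 9.14 and 20.7 TPM (1.31), and RIC8A had a difference of 0.012.

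Among the genes with a lower level in Smad3(RA/KP) cells, XRCC5 encodes the Ku80 subunit of the complex that binds broken DNA ends. It had 136 and 154 TPM in wild-type Smad3 cells and 86.1 and 70.1 TPM in Smad3(RA/KP) cells, a log2 difference of −0.89 (SE 0.17, limma adjusted p = 0.475). Without TGF-β its difference was 0.08. FGFR1OP2 had 56.5 and 34.7 TPM against 25.3 and 19.0 TPM (−0.98, limma adjusted p = 0.412), and the tRNA methyltransferase gene METTL6 19.8 and 25.2 TPM against 9.91 and 13.4 TPM (−0.90, adjusted p = 0.484). PYCARD, the adaptor ASC of inflammasomes, had 11.9 and 22.2 TPM against 6.24 and 8.46 TPM (−1.06, limma adjusted p = 0.475). Its record overlaps C16orf98 on the other strand, with the same limit as for CEMP1. Like SPARC, PYCARD had the same direction without TGF-β, at −1.53, while XRCC5, FGFR1OP2 and METTL6 had untreated differences of 0.08, −0.05 and 0.38. The treated and untreated differences of XRCC5 differed by −0.97 and those of METTL6 by −1.28, and neither passed (limma adjusted p = 0.881 and 0.763).

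The line difference followed the GC content of transcripts. A GC value was found for 12381 genes, 94.2% of the total. Over these genes the Spearman correlation of the difference with GC content was 0.542, at 0.383 in replicate 1 and 0.505 in replicate 2. From the fifth of genes with the lowest GC content to the fifth with the highest, the median difference ran from −0.089 to 0.29 in replicate 1 and from −0.29 to 0.20 in replicate 2. Without TGF-β the correlation was 0.349 in replicate 1 and −0.635 in replicate 2. Across all genes the treated differences of replicates 1 and 2 had a Pearson correlation of 0.200. With each library's trend on GC content removed, the genes at an unadjusted p under 0.05 were 536 higher and 557 lower, or 49.0% higher, against 66.9% of the 973 genes before. In that fit SPARC had a difference of −2.60 and a limma adjusted p = 0.0705. The median over all genes was 0.098 in replicate 1 and −0.085 in replicate 2, values to set beside those of the gene lists. It was −0.089 without treated Smad3(RA/KP) replicate 1 and 0.10 without replicate 2. Of the 29 gene lists described here, 18 had a median that changed sign when a treated library was left out. List counts at an unadjusted p under 0.05 are to be set beside 4.95% of all genes higher and 2.45% lower.

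**Figure D3:**
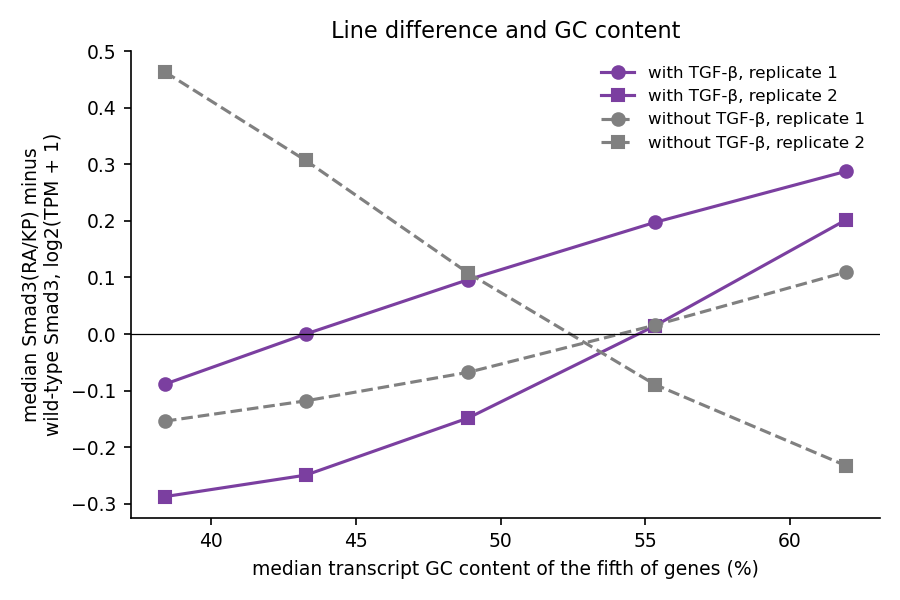
Median difference of Smad3(RA/KP) minus wild-type Smad3 on log2(TPM + 1) (vertical axis) in 5 equal groups of genes by transcript GC content (horizontal axis, median of the group in %), for each replicate with TGF-β (purple) and without it (grey, broken). Both treated lines climb with GC content, from −0.089 to 0.29 and from −0.29 to 0.20, and the untreated ones run in opposite directions.

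Core components of the TGF-β pathway had no passing difference. Of 16 Smad transducers and receptors tested, 0 passed in limma and 0 had an unadjusted p under 0.05. Their median difference was −0.21 (0.040 in replicate 1 and −0.34 in replicate 2), beside 0.0035 for all genes. It was 0.043 without Smad3(RA/KP) replicate 2 and −0.080 with the GC trend removed. In both replicates 3 were higher and 8 lower, against 29.5% and 27.7% of all genes. Treated groups did not overlap for 2 that were higher and 8 that were lower, against 18.8% and 18.7% of all genes. ACVR2A, an activin receptor, had 1.44 and 1.39 TPM in wild-type Smad3 cells and 0.914 and 0.461 TPM in Smad3(RA/KP) cells, and SMAD1, which serves the BMP branch, 5.36 and 5.73 TPM against 4.16 and 3.52 TPM. Of 12 feedback inhibitors and corepressors, 0 passed in limma and 1 had an unadjusted p under 0.05. SMAD7, the inhibitory Smad that TGF-β induces, had 32.3 and 31.5 TPM against 36.5 and 30.7 TPM, and these groups overlapped (0.07, SE 0.18, limma adjusted p = 0.936). SMAD6, the inhibitory Smad of the BMP branch, had 55.0 and 32.6 TPM in wild-type Smad3 cells and 70.2 and 48.3 TPM in Smad3(RA/KP) cells, higher within each replicate though the groups overlapped (0.45, limma adjusted p = 0.639). SKIL, the corepressor SnoN, had 9.45 and 9.25 TPM against 7.30 and 5.67 TPM (−0.48, adjusted p = 0.737).

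TGF-β target genes were spread around equality between the lines. Of 46 targets tested, 0 passed in limma, and 22 had a difference above 0 and the others below it. At an unadjusted p under 0.05, 3 were higher and 2 lower, against 4.95% and 2.45% of all genes. Their median was −0.0055, and 15 were higher and 14 lower in both replicates (29.5% and 27.7% of all genes were). With the GC trend removed, 2 were higher and 7 lower at an unadjusted p under 0.05, 34.8% lay above 0 and the median was −0.066. COL7A1, the anchoring fibril collagen, had 169 and 239 TPM in wild-type Smad3 cells and 284 and 325 TPM in Smad3(RA/KP) cells, with the treated groups apart (0.59, SE 0.16, limma adjusted p = 0.612). With the GC trend removed its difference was 0.29. Of 12 BMP targets tested, 0 passed in limma, 1 was higher and 1 lower at an unadjusted p under 0.05, and the median was 0.32. That median was 0.074 without wild-type replicate 1, 0.12 without Smad3(RA/KP) replicate 2 and 0.20 with the GC trend removed. The BMP antagonist gene GREM1 had 34.2 and 41.5 TPM against 21.1 and 22.0 TPM after TGF-β (−0.78, limma adjusted p = 0.612), and a like difference of −0.70 without it.

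Among GAPs the ARHGAP genes are those the study followed, and it chose ARHGAP22, ARHGAP24 and ARHGAP27 on these libraries, so their values are not independent evidence. Its choice used the ratio of treated to untreated levels, a measure unlike the treated levels compared here. The study also measured these genes by quantitative PCR in A549 cells, some of them in PANC-1 cells, and knocked down ARHGAP24. Of 24 ARHGAP genes tested, 0 passed in limma and 2 were higher at an unadjusted p under 0.05, against 4.95% of all genes. A difference above 0 was seen for 18, and the median was 0.12, at 0.35 in replicate 1 and −0.057 in replicate 2. Treated groups did not overlap for 7 that were higher and 2 that were lower, against 18.8% and 18.7% of all genes. The median was −0.020 without Smad3(RA/KP) replicate 1 and 0.024 without wild-type replicate 1. ARHGAP27 had 6.19 and 11.1 TPM in treated wild-type Smad3 cells and 13.6 and 17.7 TPM in treated Smad3(RA/KP) cells. Both mutant libraries were above both wild-type libraries, by 1.02 in replicate 1 and 0.62 in replicate 2 on the log2 scale (0.82 in all, SE 0.22, limma adjusted p = 0.612). ARHGAP33, a sorting nexin with a GAP domain, had 9.75 and 12.9 TPM against 23.0 and 18.1 TPM (0.81, SE 0.23, limma adjusted p = 0.612). Without TGF-β the differences were −0.19 for ARHGAP27 and −0.26 for ARHGAP33, and with the GC trend removed the treated ones were 0.55 and 0.49; both transcripts are rich in GC, at 63.6% and 65.7%. ARHGAP22 had 1.22 and 1.67 TPM against 1.72 and 3.20 TPM (0.47, SE 0.28, limma adjusted p = 0.731). ARHGAP24 was listed at 0.457 and 0.566 TPM against 0.812 and 0.618 TPM and, with a mean of 0.998 TPM over the 8 libraries, was below the limit for the test; without that limit its difference was 0.18 (SE 0.16, adjusted p = 0.820).

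Other regulators of Rac1 showed no passing difference. Of 29 GEFs for Rac, 0 passed in limma and 0 had an unadjusted p under 0.05, with a median of 0.025. ARHGEF2, whose product binds microtubules, had 13.6 and 28.0 TPM in wild-type Smad3 cells and 24.5 and 29.0 TPM in Smad3(RA/KP) cells, with overlapping groups. RAC1 itself had 198 and 205 TPM in wild-type Smad3 cells and 182 and 170.0 TPM in Smad3(RA/KP) cells (−0.19, SE 0.21, limma adjusted p = 0.830).

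The machinery of lamellipodia had genes on both sides of equality, more of them lower in Smad3(RA/KP) cells. Of 44 genes tested, 0 passed in limma, and 2 were higher and 1 was lower at an unadjusted p under 0.05. The median was −0.081, or 0.016 without Smad3(RA/KP) replicate 2. In both replicates 12 (27.3%) were higher and 20 (45.5%) lower, against 29.5% and 27.7% of all genes. Treated groups did not overlap for 5 that were higher and 12 that were lower, against 18.8% and 18.7% of all genes. CTTN, cortactin, which stabilises branched actin, had 185 and 361 TPM in wild-type Smad3 cells and 305 and 473 TPM in Smad3(RA/KP) cells. It was higher in the mutant within each replicate, although replicate 2 of wild-type Smad3 was above replicate 1 of the mutant (0.55, SE 0.15, limma adjusted p = 0.612). ABI1, a subunit of the WAVE complex that Rac1 activates, had 40.4 and 38.5 TPM against 34.1 and 20.3 TPM, so the treated groups did not overlap (−0.56, SE 0.22, limma adjusted p = 0.658). With the GC trend removed CTTN had a difference of 0.45 and ABI1 one of −0.38.

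Transcription factors of EMT and epithelial junction genes had no passing difference. Of 14 EMT transcription factors tested, 0 passed in limma, 1 was higher and 1 lower at an unadjusted p under 0.05, and the median was 0.10. GSC, goosecoid, had 2.39 and 1.75 TPM in wild-type Smad3 cells and 0.497 and 0 TPM in Smad3(RA/KP) cells (−1.32, SE 0.42, limma adjusted p = 0.612). Without TGF-β it had 0.673 and 2.41 TPM against 2.98 and 1.56 TPM. FOXC2 had 2.95 and 7.32 TPM against 7.77 and 11.2 TPM (0.85, limma adjusted p = 0.658). Of 28 epithelial junction genes, 0 passed in limma and 2 were higher at an unadjusted p under 0.05, with a median of 0.091. CDH1, E-cadherin, had 2.61 and 2.44 TPM in wild-type Smad3 cells and 5.69 and 1.59 TPM in Smad3(RA/KP) cells, so that its replicates pointed in opposite directions, at 0.89 and −0.41 (limma adjusted p = 0.872). ELF3, an epithelial transcription factor, had 41.5 and 18.1 TPM against 92.8 and 20.9 TPM, a difference of 1.14 in replicate 1 and 0.20 in replicate 2 (limma adjusted p = 0.624). CLDN3, a claudin of tight junctions, had 1.79 and 1.38 TPM against 3.78 and 4.40 TPM (0.98, adjusted p = 0.653).

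SPARC was the matrix gene that passed. Of 33 mesenchymal and matrix genes tested, SPARC passed as lower in Smad3(RA/KP) cells than in wild-type Smad3 cells and no other gene passed. The median was 0.11, at 0.36 in replicate 1 and −0.12 in replicate 2. At an unadjusted p under 0.05, 9 others were higher, where 4.95% of all genes were. Of these 9, 2 chains of collagen VI and a laminin chain are described here, chosen after their values were seen. COL6A1 had 17.4 and 45.5 TPM in wild-type Smad3 cells and 37.0 and 63.8 TPM in Smad3(RA/KP) cells (0.76, limma adjusted p = 0.606). COL6A2, its neighbour in the trimer, had 25.0 and 70.0 TPM against 60.1 and 107 TPM (0.92, adjusted p = 0.606). Both were higher within each replicate, and both groups overlapped because replicate 2 was above replicate 1 in each line. LAMA5 had 87.5 and 79.5 TPM against 132 and 119 TPM (0.58, limma adjusted p = 0.612). With the GC trend removed, 3 of the genes on this list were higher and 3 lower at an unadjusted p under 0.05, and the median was 0.0033. Without wild-type replicate 1 the median of the list was −0.091. COL1A1, which rose with TGF-β in both lines (limma adjusted p = 9.4e-05 in wild-type Smad3 cells and 0.000125 in Smad3(RA/KP) cells), had 157 and 99.0 TPM against 169 and 104 TPM (0.09), and VIM, the intermediate filament vimentin, also chosen after its values were seen, 1923 and 3502 TPM against 2562 and 3379 TPM (0.18).

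Of 13 integrin genes, 0 passed in limma and 1 was lower at an unadjusted p under 0.05. ITGAV, the αv chain, which with its partners releases TGF-β from its latent form, had 57.0 and 78.1 TPM in wild-type Smad3 cells and 41.6 and 42.6 TPM in Smad3(RA/KP) cells (−0.65, SE 0.21, limma adjusted p = 0.612). Its untreated difference was 0.12. Of 30 matrix proteases and inhibitors, 0 passed in limma, 2 were higher and 1 was lower at an unadjusted p under 0.05, with a median of 0.0026. ADAM8 had 2.42 and 5.63 TPM against 6.33 and 8.67 TPM, and the membrane protease gene MMP17 9.90 and 12.4 TPM against 15.5 and 20.0 TPM.

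**Figure D4:**
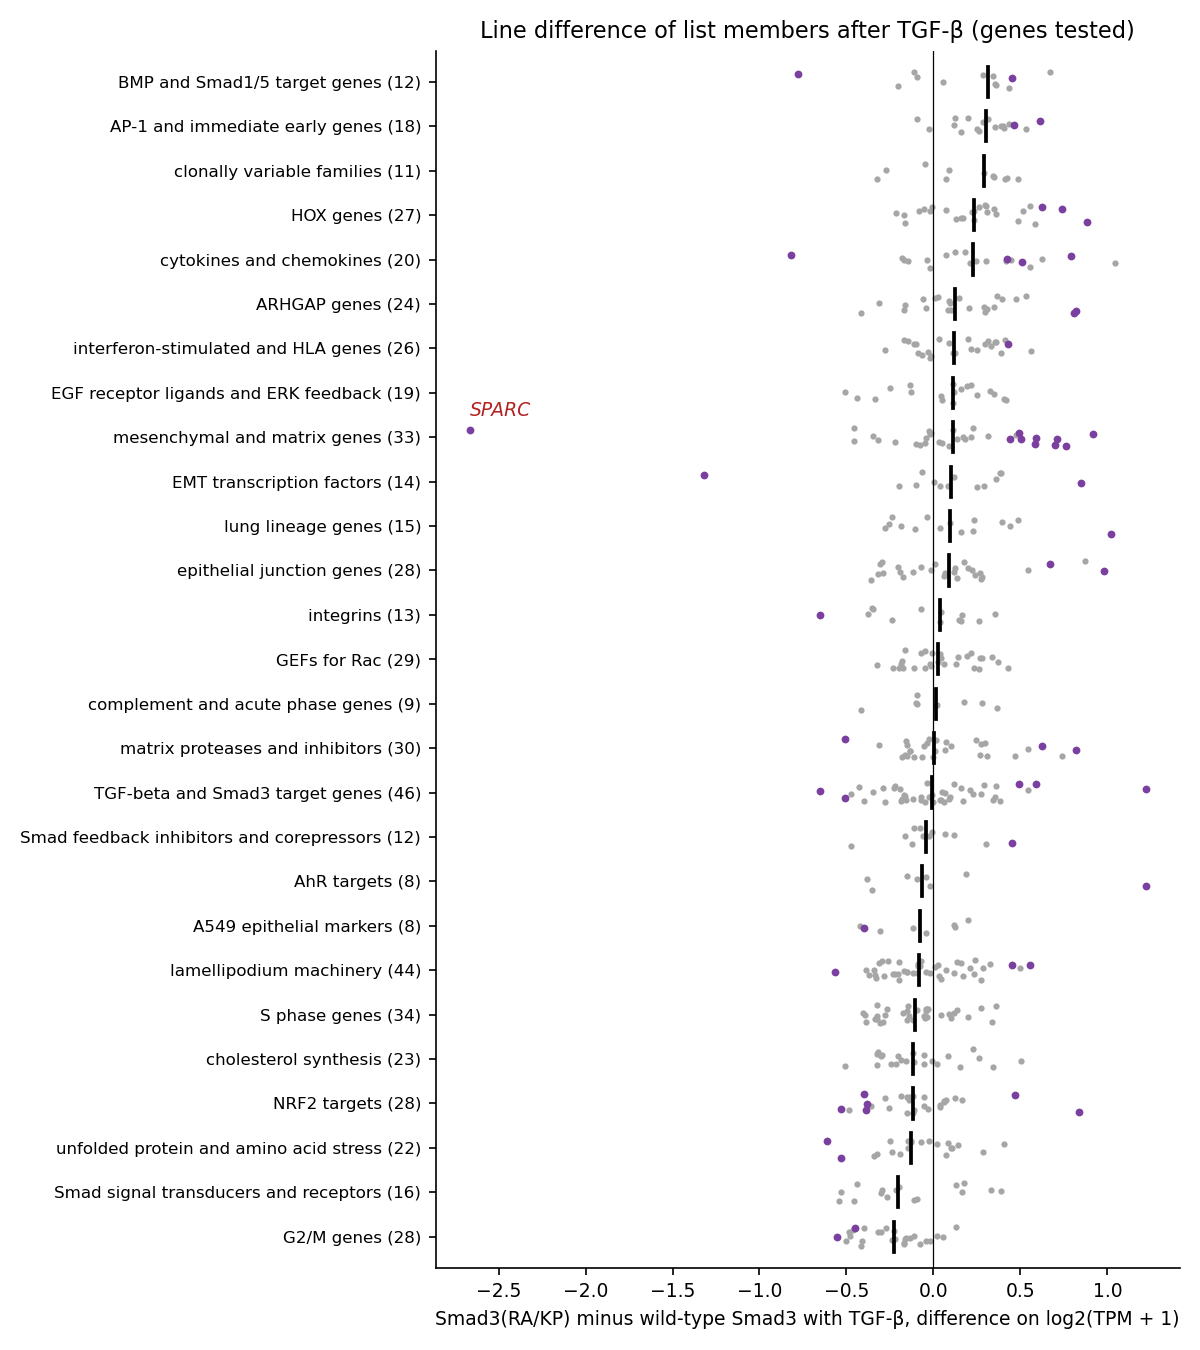
Difference of Smad3(RA/KP) minus wild-type Smad3 after TGF-β on log2(TPM + 1) (horizontal axis) for the members of the gene lists described with at least 8 genes tested (rows, with the number tested); purple points have an unadjusted limma p under 0.05, grey points do not, and black bars are medians. SPARC at −2.67 is the only member that passed after adjustment, and the medians run from −0.23 for the G2/M genes to 0.32 for the BMP targets.

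Among signalling and inflammatory genes, the AP-1 and immediate early list leaned to the higher side. Of 18 tested, 0 passed in limma and 2 were higher at an unadjusted p under 0.05, against 4.95% of all genes. In both replicates 15 (83.3%) were higher and 0 lower, against 29.5% and 27.7% of all genes. Treated groups did not overlap for 8 that were higher, against 18.8% of all genes. The median was 0.30 and became 0.17 with the GC trend removed, where 0 had an unadjusted p under 0.05. Leaving out a treated library gave medians from 0.20 to 0.35. Without TGF-β the list had a median of 0.15, beside 0.031 for all genes. JUND, an AP-1 subunit, had 45.8 and 41.5 TPM in wild-type Smad3 cells and 67.5 and 67.0 TPM in Smad3(RA/KP) cells (0.61, SE 0.19, limma adjusted p = 0.612). The GC content of its transcript is 69.9%, and its difference was 0.21 with the GC trend removed. Of 20 cytokine and chemokine genes, 0 passed in limma. At an unadjusted p under 0.05, 3 were higher and 1 was lower, against 4.95% and 2.45% of all genes. Their median was 0.23, or 0.061 without wild-type replicate 1. EDN1, endothelin-1, had 38.0 and 34.0 TPM against 22.5 and 17.7 TPM (−0.82, SE 0.20, limma adjusted p = 0.595). CXCL2, a neutrophil chemoattractant, had 1.81 and 4.67 TPM against 5.23 and 6.68 TPM (0.79, adjusted p = 0.639). Of 19 EGF receptor ligands and ERK feedback genes, 26 interferon-stimulated and HLA genes and 9 complement genes, 0, 1 and 0 had an unadjusted p under 0.05, and 0 passed in limma. The medians of these 3 lists were 0.12, 0.12 and 0.015. AREG, the EGF receptor ligand amphiregulin, had 12.8 and 19.1 TPM against 20.6 and 22.1 TPM (0.42, adjusted p = 0.668 in limma). C3, the central complement protein, had 13.9 and 30.0 TPM in wild-type Smad3 cells and 25.8 and 24.4 TPM in Smad3(RA/KP) cells, with the mutant values between the wild-type ones (0.28). IFITM2, which restricts the entry of viruses, had 124 and 121 TPM against 170.1 and 160.1 TPM (0.43, limma adjusted p = 0.658).

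Targets of the aryl hydrocarbon receptor (AhR), a xenobiotic sensor, and of NRF2, a redox sensor, had no passing difference. Of 8 AhR targets, 0 passed in limma and CYP1B1 alone had an unadjusted p under 0.05; the median was −0.067 and 2 of the 8 lay above 0. TIPARP, another AhR target, had 35.6 and 32.6 TPM in wild-type Smad3 cells and 26.7 and 26.3 TPM in Smad3(RA/KP) cells (−0.35, limma adjusted p = 0.712). Of 28 NRF2 targets, 0 passed in limma. At an unadjusted p under 0.05, 2 were higher and 4 lower (1 and 2 with the GC trend removed), against 4.95% and 2.45% of all genes. In both replicates 3 (10.7%) were higher and 13 (46.4%) lower, against 29.5% and 27.7% of all genes. Their median was −0.12, and 0.016 without Smad3(RA/KP) replicate 2. OSGIN1, which is linked to growth inhibition under oxidative stress, had 22.0 and 15.8 TPM against 39.6 and 29.3 TPM (0.84, SE 0.24, limma adjusted p = 0.612). AKR1C1, an aldo-keto reductase, had 765 and 624 TPM against 663 and 415 TPM (−0.40, adjusted p = 0.668).

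The G2/M genes of the cell cycle leaned to the lower side in Smad3(RA/KP) cells. Of 28 G2/M genes, 0 passed in limma and 2 were lower at an unadjusted p under 0.05, against 2.45% of all genes. In both replicates 0 were higher and 17 (60.7%) lower, against 29.5% and 27.7% of all genes. Treated groups did not overlap for 12 that were lower, against 18.7% of all genes. The median was −0.23, at −0.15 in replicate 1 and −0.42 in replicate 2, and −0.15 with the GC trend removed. It rested in part on Smad3(RA/KP) replicate 2, since it was −0.060 without that library and −0.46 without Smad3(RA/KP) replicate 1. AURKA, a mitotic kinase, had 110.3 and 67.3 TPM in wild-type Smad3 cells and 70.6 and 48.3 TPM in Smad3(RA/KP) cells (−0.55, SE 0.17, limma adjusted p = 0.612). BUB1, a checkpoint kinase of the spindle, had 27.8 and 23.2 TPM against 20.0 and 16.7 TPM (−0.45, adjusted p = 0.668). Without TGF-β the median of the G2/M list was 0.057. Of 34 S phase genes, 0 passed in limma and 0 had an unadjusted p under 0.05, with a median of −0.11, or 0.076 without Smad3(RA/KP) replicate 2, and UHRF1 and MCM5, which had the smallest p among them, lay on opposite sides at 0.36 and −0.41.

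Metabolic and stress lists had small medians. Of 23 genes of cholesterol synthesis, 0 passed in limma and 0 had an unadjusted p under 0.05, with a median of −0.12, or 0.024 without Smad3(RA/KP) replicate 2. TM7SF2, a sterol reductase gene, had 10.6 and 8.46 TPM against 13.2 and 14.5 TPM (0.50, limma adjusted p = 0.668). FDPS, farnesyl diphosphate synthase, had 143 and 141 TPM in wild-type Smad3 cells and 118 and 114 TPM in Smad3(RA/KP) cells (−0.29). Of 22 genes of the unfolded protein and amino acid stress responses, 0 passed in limma, with a median of −0.13. At an unadjusted p under 0.05, 2 were lower, against 2.45% of all genes. These were PSAT1, an enzyme of serine synthesis, with 93.8 and 172 TPM in wild-type Smad3 cells against 60.5 and 127 TPM in Smad3(RA/KP) cells (−0.53, limma adjusted p = 0.658), and ASNS, asparagine synthetase, with 55.4 and 82.0 TPM against 32.3 and 59.5 TPM (−0.61, adjusted p = 0.668). Both were lower in the mutant within each replicate, and the groups overlapped.

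Lists that can mark differences between clones gave no passing gene. Of 27 HOX genes tested, 0 passed in limma and 3 were higher at an unadjusted p under 0.05, against 4.95% of all genes. Their median was 0.23, and 17 (63.0%) were higher in both replicates, against 29.5% of all genes. That median was 0.12 with the GC trend removed and 0.13 without Smad3(RA/KP) replicate 2. Without TGF-β the list had a median of 0.12, beside 0.031 for all genes. HOXB6 had 6.29 and 6.76 TPM in wild-type Smad3 cells and 11.3 and 9.96 TPM in Smad3(RA/KP) cells (0.62, limma adjusted p = 0.663), and HOXA5 0.699 and 0.660 TPM against 1.72 and 2.53 TPM. Of 11 protocadherin genes, 0 passed in limma and 0 had an unadjusted p under 0.05, with a median of 0.29, or 0.12 without wild-type replicate 1 and 0.13 without Smad3(RA/KP) replicate 1; their records overlap within each cluster. Of 30 cancer-testis antigen genes listed, 3 were tested, 0 of them passed in limma and 0 had an unadjusted p under 0.05, with a median of −0.13. The largest, XAGE1B, had 116 and 141 TPM against 84.9 and 123 TPM. Of 15 lung lineage genes, 0 passed in limma and 1 was higher at an unadjusted p under 0.05, with a median of 0.094. MUC5B, an airway mucin, had 0.799 and 0.176 TPM against 3.31 and 1.02 TPM (1.02, SE 0.30, limma adjusted p = 0.612) and was also higher without TGF-β, by 1.19. The fibroblast marker LUM was also low, with 1.47 and 0.330 TPM against 3.81 and 1.50 TPM (0.94, limma adjusted p = 0.612) and a difference of 1.06 without TGF-β. Of 12 markers of other cell types 3 could be tested, 0 passed in limma and LUM was the 1 with an unadjusted p under 0.05; the fibroblast markers summed to 0.538 to 1.47 TPM in the wild-type libraries and 1.50 to 4.12 TPM in the mutant ones, with DCN listed at 0. Their part in the differences was not tested. Of the 8 A549 epithelial markers tested, 0 passed in limma and 1 was lower at an unadjusted p under 0.05, the AKR1C1 given above, and together they summed to 17332 to 23769 TPM.

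The named genes are set beside their untreated differences here, grouped after the values were seen; the contrast between conditions, treated minus untreated line difference, passed in limma for 3 other genes (0.0228%) and had an unadjusted p under 0.05 for 4.29% of genes. SPARC, PYCARD, GREM1, MUC5B and LUM had treated and untreated differences of the same sign, each over 0.7 in size. CYP1B1, XRCC5, METTL6, ARHGAP27, ARHGAP33 and COL7A1 were among many named genes with treated differences of 0.59 or more in size and untreated ones of 0.38 or less. Others that met these bounds included FGFR1OP2, NRBP2, OSGIN1, EDN1, ADAM8, CXCL2, ELF3, ITGAV, HOXA5, HOXB6, JUND and ASNS. Genes were mostly named for a small treated p, which favours large treated differences beside smaller untreated ones. This grouping therefore cannot show that a difference depends on TGF-β. Across all genes the treated and untreated differences had a Pearson correlation of −0.032.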

How the data were processed

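RNA was extracted with an RNeasy Plus kit, polyadenylated RNA was selected with Dynabeads and libraries were made with the Ion Total RNA-Seq Kit v2. Per the labels, the authors aligned reads with HISAT2 2.1.0 to GRCh38 and quantified genes with StringTie 2.0.4. The sources used here do not give the gene annotation. The deposited TPM and FPKM values are the authors' length- and depth-scaled levels, and the deposited coverage is the authors' mean number of reads over each base of a gene. Read counts are not in these tables, so no counting error could be given; mapped bases were recovered from the ratio of coverage to FPKM.

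Records of 1 gene name were summed (30017 symbols). log2(TPM + 1) of the 13141 genes with a mean of 1 TPM or more over the 8 libraries was fitted with limma 3.58.1 in R 4.3.3, with 4 groups and the replicate number as a block, a trend of variance on the mean, and a Benjamini-Hochberg threshold of 0.05 (3 residual and 5.90 prior degrees of freedom). Fold changes on this scale understate changes of low genes. The study compared ratios of treated to untreated levels over independent experiments, and the block takes libraries of 1 number as 1 experiment. Deviations of same-numbered libraries correlated at 0.0484 to 0.332 over 6 pairs of groups, so that the pairing by number is an assumption; estimates are identical without it. P-values measure the spread between these libraries.

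GC content was taken from the longest GENCODE v44 transcript of a gene, and a lowess trend (span 0.3) was removed from each library as an alternative. The fit was tested on simulated data with independent noise for each library and no GC trend. There limma called 0, 10, 39 and 47 of 50 genes changed by 0.5, 1, 2 and 3 on the log2 scale. It also called 2 of 12941 unchanged genes. Other alternatives were pseudocounts of 0.5 and 5, other limits on low values, FPKM, median-ratio and quantile scaling, no replicate block, no trend, a robust fit, the treated libraries alone, and each library left out.

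Genes were named by a rule: those that passed with a mean of 5 TPM or more, a TPM above 0 in each treated library and groups that did not overlap, up to 15 a direction; where fewer than 5 passed, the 5 with the smallest p under the same conditions; the genes the study followed; and for each list up to 4 that passed or, where none did, up to 2 with the smallest p. Others are said to be chosen after their values were seen, and some genes and lists under the rule are not reported here. The lists and the comparison were chosen with earlier results of these data known. Python 3.11.15, pandas 2.3.3, numpy 2.4.6 and matplotlib 3.10.9 were used.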

Additional observations from a re-analysis of the deposited data

Results flagged for a closer look

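For 3 genes the line difference with TGF-β differed from that without it in a test of the difference itself (limma, 0.0228% of genes; 564 genes, 4.29%, had an unadjusted p under 0.05). SEPT5, a septin, had a contrast between conditions of 4.04 on log2(TPM + 1) (SE 0.41, limma adjusted p = 0.0257). It had 8.00 and 18.8 TPM in treated wild-type Smad3 cells, 12.1 and 16.9 TPM in treated Smad3(RA/KP) cells and 12.1 and 14.6 TPM in untreated wild-type Smad3 cells, and was listed at 0 in both untreated Smad3(RA/KP) libraries. Its record overlaps that of SEPT5-GP1BB, which had 7.36 and 6.92 TPM in those 2 libraries and 1.30 to 4.61 TPM elsewhere, so reads of the pair may be split between the records. LOC102724049 had a contrast of −3.88 (SE 0.40), with 2.67 and 3.22 TPM in treated wild-type Smad3 cells, 2.61 and 2.90 TPM in untreated Smad3(RA/KP) cells and 0 in the other 4 libraries. CTB-178M22.2 had a contrast of −4.35 (SE 0.46), with 3.01 and 2.17 TPM in treated wild-type Smad3 cells, 3.55 and 6.14 TPM in untreated Smad3(RA/KP) cells and 0 in the other 4 libraries. The records of these 2 overlap SGMS2 and TENM2. A listed 0 can be a failed estimate, and the cause was not tested.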

How the results depend on the processing

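With 1 gene passing after TGF-β, counts moved by few genes: 2 with a pseudocount of 5, 3 with a robust fit, and 0 without a limit on low values, without the trend, with the GC trend removed (1093 genes at an unadjusted p under 0.05) or with the treated libraries alone and no replicate block (702 unadjusted). The treated libraries alone with the replicate block gave 87, on 1 residual degree of freedom. Leaving out 1 library gave 0 to 6. SPARC kept its direction throughout, at −2.92 to −2.41, and passed in 13 of 21 alternatives, with limma adjusted p-values from 4.98e-07 to 0.348; without the replicate block it was 0.0491, and 574 genes had an unadjusted p under 0.05. In untreated cells 2 genes passed in the reported fit, 1 with a pseudocount of 5, without the replicate block, without the trend or with the GC trend removed, 6 with a robust fit and 1 to 7 with a library left out. The contrast between conditions passed for 3 genes, for 0 with a pseudocount of 5, no limit on low values, FPKM or the GC trend removed, for 1 with a limit of 5 TPM, for 6 with a robust fit and for 0 to 8 with a library left out. Values that changed sign had not passed. SMAD7 was −0.074 with the GC trend removed and ran from −0.035 to 0.17 with a library left out. With a library left out CDH1 ran from −0.28 to 0.76, C3 from −0.19 to 0.75 and CD14 from −0.012 to 0.61. The causes were not tested. Of 651 higher and 322 lower genes at an unadjusted p under 0.05, 66.9% were higher; this share was 57.0% with quantile scaling, 40.6% without Smad3(RA/KP) replicate 1 and 74.8% without Smad3(RA/KP) replicate 2.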
